A study of Mus musculus with 11 samples.

Results

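The genes described here encode the enzymes that make drugs, toxins and many lipids easier to excrete: cytochromes P450 of families 1 to 4, flavin-containing monooxygenases (FMO), UDP-glucuronosyltransferases (UGT) and carboxylesterases. Members were taken by gene symbol, as the array's annotation gives it, and pseudogenes were left out. The rule found 119 of 23185 named genes, of which 1 was Fmod, fibromodulin, a matrix proteoglycan that only shares the letters of the FMO symbols. Fmod was counted and is described apart, which leaves 118 genes in 8 families: 3 Cyp1, 48 Cyp2, 8 Cyp3, 20 Cyp4, 6 Fmo, 5 Ugt1a, 10 Ugt2 and 18 Ces genes.

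Mouse liver cells were sorted on YFP, a yellow fluorescent protein used here as a lineage label of the bile duct epithelium, and hybridised to Affymetrix whole-transcript arrays, with 3 arrays of YFP+ cells from mice on CDE (a choline-deficient, ethionine-supplemented diet), 3 of YFP+ cells from mice on DDC (3,5-diethoxycarbonyl-1,4-dihydrocollidine), 2 of YFP+ cells from untreated mice (UTR) and 3 of YFP- cells from untreated mice. A protocol text shared by all samples gives 5 weeks of DDC diet and 4 mice, and the labels give no length for CDE and no age, strain, promoter of the label or number of animals behind an array. All groups came from the non-parenchymal pellet of digested livers, after hepatocytes had been spun away, and dead cells were left out by a stain. Nothing in the labels says that the arrays of a group were separate animals, so the spread between arrays may be technical.

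Drug metabolism is usually described in steps. Cytochromes P450 and FMO enzymes, bound to the endoplasmic reticulum, add or expose an oxygen, carboxylesterases cut esters and amides, and UGT enzymes attach glucuronic acid to the product. Hepatocytes carry most of these enzymes in the liver, bile duct cells few of them, and the receptors AHR, PXR (Nr1i2) and CAR (Nr1i3) raise many of the P450 genes when a foreign compound binds. Several P450s of the Cyp2j and Cyp4f groups act instead on arachidonic acid and its products. DDC itself is known for destroying P450 haem and for blocking haem synthesis.

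The YFP+ arrays carried bile duct markers at mean log2 levels of 10.21 to 10.50 over 10 measured genes, against 8.10, 5.04 and 4.80 on the 3 YFP- arrays. YFP- replicate 1 carried bile duct transcripts, and it also read highest for stellate cell and fibroblast markers (7.77, against 5.48 and 5.84 on replicates 2 and 3). The mean of 17 hepatocyte markers that are no members was 9.95 on CDE replicate 2, against 8.47 to 9.01 on the other 7 YFP+ arrays, and 7.43, 8.73 and 9.55 on YFP- replicates 1 to 3. Sinusoidal endothelial markers had means of 11.70, 10.01 and 10.43 on YFP- replicates 1 to 3, against 4.95 to 5.80 on the YFP+ arrays. YFP- replicate 2 read highest for lymphocyte markers (9.91, against 4.70 and 5.04). Macrophage markers were highest on YFP- replicate 3 (11.60, against 8.76 and 8.53 on replicates 1 and 2). Fewer cells of a type and less RNA per cell cannot be told apart in such bulk samples.

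Short stretches of promoter are shown first for the members whose start regions hold the letters bound by a factor that the results touch: AHR for the Cyp1 genes, HNF1 for the Ugt1a genes and HNF4 for Cyp3a and Cyp2c genes. RefSeq promoters of build GRCm38.p6 (250 bases before to 50 after a start) were at hand for 97 of the 118 genes, as 106 windows. Each line gives 30 bases 5′ to 3′ on the gene's strand, with the motif in capitals, on either strand.

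Cyp1a1 (AHR core GCGTG, chr9:57697547-57697576, plus strand): tcagataaggagGCGTGgccaacagacaca
Cyp1b1 (AHR core, chr17:79715120-79715149, minus strand): cgtcccgcccctCACGCcccaccccctaag
Ugt1a1 (HNF1 letters GTTAATNAT, chr1:88211905-88211934, plus strand): ggcacaatcaATCATTAACtggttgcacag
Ugt1a9 (HNF1 letters, chr1:88070675-88070704, plus strand): ttttaagtaaATCATTAACctgaatttaac
Cyp3a11 (HNF4 letters CAAAGTCCA, chr5:145879944-145879973, minus strand): aagagagtacCAAAGTCCAgtgatgcaaag
Cyp3a16 (HNF4 letters, chr5:145469803-145469832, minus strand): aagagacgacCAAAGTCCAggtgatgcagg
Cyp2c70 (HNF4 letters, chr19:40187331-40187360, minus strand): aggtcaaactCAAAGTCCAaactctgtgta

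The HNF1 letters stood in 8 of 106 member promoters (7.55%), against 0.801% of all 32851 promoters of the table, and the HNF4 letters in 9 (8.49%), against 0.475%. The AHR core stood in 16 (15.1%), against 32.4% of all promoters. These motifs do not overlap each other as written, and a match is a description of letters, not of binding. Paralogs share promoter sequence, as the Cyp3a11 and Cyp3a16 windows show, so the counts are not of independent sequences.

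Most members were dim in bile duct cells. An expression value was read against its own array, whose lower quartile lay at 4.28 to 4.38 and whose median lay at 5.63 to 5.76 on the log2 scale. Only 17 of 118 members (14.4%) lay over the median on all 8 YFP+ arrays, against 45.2% of all genes, and 43 (36.4%) lay under the lower quartile on all 8, against 19.4% of all genes. By group, 51 members lay under the lower quartile on all arrays in CDE cells, 50 in DDC cells and 52 in UTR cells. The shares of all genes were 22.2%, 21.6% and 23.2%. In YFP- cells 32 of 118 members lay under it on all arrays, against 19.5% of all genes. Counted by group, 19 members lay over the median on all arrays in CDE cells, 19 in DDC cells and 23 in UTR cells, against 47.7%, 47.3% and 48.5% of all genes. In YFP- cells 16 members (13.6%) lay over the median on all 3 arrays, against 43.7% of all genes. Values of different genes are not compared with each other, since each feature has its own probes.

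The 17 members over the median in all YFP+ cells were Ces1d and Ces2g, the flavin monooxygenases Fmo2 and Fmo5, 9 P450s of the Cyp2 and 4f groups given below, and Cyp2a22, Cyp2c39, Cyp4f17 and Cyp4v3. The 9 were Cyp2d10, Cyp2d22, Cyp2j5, Cyp2j6, Cyp2j9, Cyp4f13, Cyp4f14, Cyp4f16 and Cyp4f18. Several of these names fall outside the rule for named genes and were added after their values were seen. No Cyp1, Cyp3, Ugt1a or Ugt2 gene was among them.

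Members that hepatocytes are known for lay at different heights in YFP+ cells. Ces1d and Cyp2d10 lay over the median on all 8 arrays, and Cyp2e1 read 5.10 to 6.09, while others lay under the lower quartile. Cyp2c29, a main hepatocyte P450, read 3.48 to 3.68 on the CDE arrays, 3.54 to 3.74 on the DDC arrays and 3.30 and 3.70 on the UTR arrays. Cyp2b10, the usual reporter of CAR, read 3.63 to 4.15, 3.88 to 3.99 and 3.88 to 3.98 in CDE, DDC and UTR cells. Of the 9 members with HNF4 letters in the promoter, 5 lay under the lower quartile on all 8 YFP+ arrays. The 17 hepatocyte markers that are no members also lay at different heights across these arrays, with a mean of 8.47 to 9.95. Alb read 11.70 to 12.58 and Ttr 12.47 to 13.15, while Apoc3 read 3.78 to 7.80 and Cps1 4.52 to 5.13.

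Untreated YFP+ cells were set against YFP- cells to show which enzymes mark the sorted bile duct fraction. Of 118 members 23 differed, 13 higher and 10 lower in YFP+ UTR cells (limma, adjusted p under 0.05 over all 23185 genes). Over all genes 18.9% differed, 10.4% higher and 8.46% lower, so the members' share of 19.5% was near that of the whole array. The median difference was -0.13 over the members and -0.01 over all genes. The highest differences among the called members were those of Fmo2, Ces1d, Cyp4f14 and Cyp2j5, and the lowest that of Cyp4b1. On 50 members the arrays of the groups did not overlap (20 higher, 30 lower), against 43% of all genes (22.5% higher, 20.5% lower), and 42 had an unadjusted p under 0.05, against 31.5% of all genes.

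**Figure D1:**
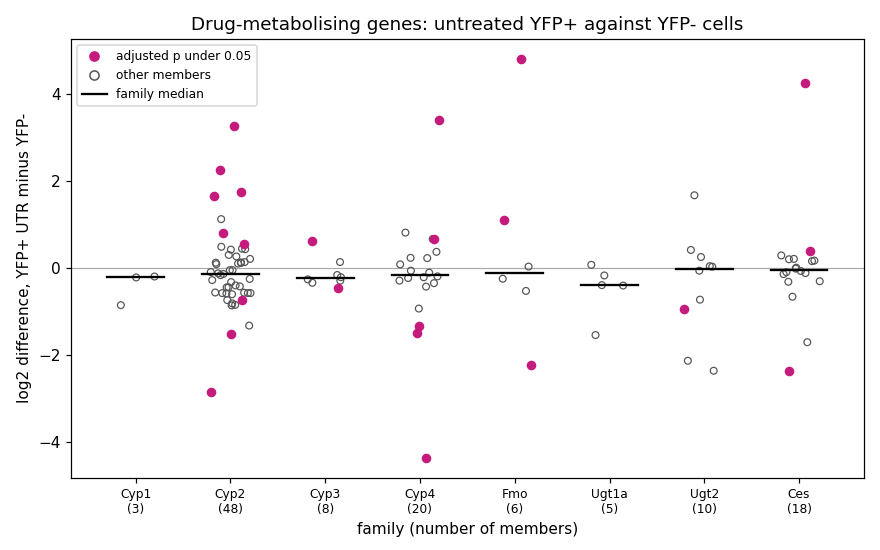
Log2 difference of YFP+ UTR minus YFP- for each of the 118 members (points), by family with the number of members, filled where the adjusted p was under 0.05, with the family median as a bar. Family medians lay between -0.39 and -0.01, while single members ran from -4.35 (Cyp4b1) to 4.81 (Fmo2).

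Among the P450s of family 2, 6 of 48 were higher and 3 lower, with a median of -0.13. Cyp2j5, a mouse epoxygenase of arachidonic acid, read 9.13 and 9.72 in UTR cells, against 6.69, 6.16 and 5.61 in YFP- cells. The difference was 3.27 ± 0.41 (SE, adjusted p = 0.000747, limma), a fold of 9.65, and the groups did not overlap. Its neighbour Cyp2j6 read 8.92 and 8.65 in UTR cells, against 7.89, 5.60 and 6.12 in YFP- cells, higher by 2.25 ± 0.55 (adjusted p = 0.0194, limma). In both genes the highest YFP- value was that of replicate 1, the array with bile duct transcripts.

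Cyp2s1, a P450 known from epithelia, read 7.03 and 7.71 in UTR cells, against 5.76, 5.67 and 5.44 in YFP- cells (1.74 ± 0.31, SE). Cyp2d22, often named as the nearest mouse counterpart of human CYP2D6, was higher by 1.65 ± 0.42, with means of 10.04 ± 0.11 (SD, n = 2) in UTR cells and 8.39 ± 0.93 (SD, n = 3) in YFP- cells. Cyp2a22 was higher by 0.80 ± 0.17, and Cyp2u1, a hydroxylase of long-chain fatty acids, by 0.56 ± 0.15. Their adjusted p-values by limma ran from 0.00426 for Cyp2s1 to 0.0307 for Cyp2u1.

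The lower members of family 2 were Cyp2e1, Cyp2r1 and Cyp2c29. Cyp2e1, which oxidises ethanol and acetaminophen, read 5.26 and 5.20 in UTR cells, against 10.13, 6.43 and 7.64 in YFP- cells (-2.83 ± 0.84, SE, adjusted p = 0.0453, limma). The groups did not overlap, but YFP- replicate 1 lay far above the other YFP- arrays, and without it the difference was -1.80. The call was lost without either UTR array or YFP- replicate 3, with differences from -3.65 to -1.80 over the 5 fits that left out 1 array. Cyp2r1, the vitamin D 25-hydroxylase, was lower, with a difference of -1.52 ± 0.37, and so was Cyp2c29, with -0.72 ± 0.21. Both UTR arrays read these 2 genes under the lower quartile, so the difference of Cyp2r1 is a lower bound. Cyp2c29 also lay under it on YFP- replicates 1 and 3 (3.88 and 4.15), and its call was lost in 4 of the 5 fits that left out 1 array.

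In Cyp2j 6 of 7 members had a positive difference, with a median of 0.43, and 2 passed. In Cyp2c 2 of 15 had one, with a median of -0.42, and 1 passed, and in Cyp2b 1 of 5, with a median of -0.09, and 0 passed. Of all genes 11388 of 23185 had a positive difference, and differences between subfamilies were not tested. Members of Cyp2c, Cyp2d and Cyp3a are close paralogs in gene clusters, and the probes of one gene can bind transcripts of another, so values of single members of these groups are uncertain.

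In family 4, 2 of 20 were higher and 3 lower. Cyp4f14, a hydroxylase of leukotriene B4, read 8.29 and 8.64 in UTR cells, against 6.37, 4.15 and 4.67 in YFP- cells, higher by 3.40 ± 0.59 (SE, adjusted p = 0.00381, limma). Cyp4x1 was higher by 0.67 ± 0.14. Cyp4b1, a hydroxylase of fatty acids best known from lung, read 6.19 and 7.11 in UTR cells, against 11.78, 10.59 and 10.63 in YFP- cells. That difference of -4.35 ± 0.43 (SE, adjusted p = 0.000231, limma) was the lowest adjusted p of all members, and corresponds to 20.4 times more in YFP- cells.

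The other lower members of family 4 were of the Cyp4f group as well. Cyp4f18, a leukotriene B4 hydroxylase of mouse neutrophils, read 6.07 and 6.10 in UTR cells, against 7.17, 7.99 and 7.57 in YFP- cells (-1.49 ± 0.22, SE). Cyp4f16 read 7.88 and 8.46 in UTR cells, against 9.06, 9.83 and 9.61 in YFP- cells (-1.33 ± 0.26, SE). For both genes YFP- replicate 2 was the highest array, which was also highest for neutrophil and monocyte markers (a mean of 10.84, against 8.18 and 8.01 on replicates 1 and 3, and 4.37 to 5.68 on the YFP+ arrays), whose part in the result was not tested. The Cyp4a genes, which PPAR alpha raises in hepatocytes, had 0 of 8 past the threshold and a median of -0.26.

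In the FMO family 2 of 6 were higher and 1 lower. Fmo2, the form best known from lung, read 10.98 and 11.22 in UTR cells, against 10.23, 4.26 and 4.39 in YFP- cells. The groups did not overlap, but YFP- replicate 1 lay within 1 log2 unit of the UTR arrays, and replicates 2 and 3 lay near the floor. The difference was 4.81 ± 1.47 (SE, adjusted p = 0.0497, limma) and ran from 3.80 to 6.78 in the 5 fits that left out 1 array, highest without YFP- replicate 1. The call was lost in the other 4 of these fits and in the fit of the 5 arrays alone, and the common spread of the fit understates the spread of Fmo2 within YFP- (SD 3.41).

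Fmo4 read 5.34 and 5.63 in UTR cells, against 4.26, 4.27 and 4.59 in YFP- cells (1.11 ± 0.19, SE, adjusted p = 0.00326, limma). Fmo1, a main FMO of mouse liver, went the other way, with 6.28 and 6.12 in UTR cells, against 9.75, 7.24 and 8.25 in YFP- cells (-2.21 ± 0.56, SE, adjusted p = 0.0221, limma). Fmo5 lay over the array median in all groups and was lower, with a difference of -0.52, without passing (adjusted p = 0.099, limma).

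Among the carboxylesterases 2 of 18 were higher and 1 lower. Ces1d, a triacylglycerol hydrolase of liver and fat, read 11.00 and 11.48 in UTR cells, against 8.13, 5.83 and 7.02 in YFP- cells. It was 19.1 times higher (4.25 ± 0.58 log2, SE, adjusted p = 0.00114, limma), and again YFP- replicate 1 was the highest of the YFP- arrays. Ces2h was higher by 0.40 ± 0.12. Ces2e read 5.28 and 5.62 in UTR cells, against 8.69, 7.57 and 7.14 in YFP- cells, lower, with a difference of -2.36 ± 0.37 (SE, adjusted p = 0.00246, limma).

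**Figure D2:**
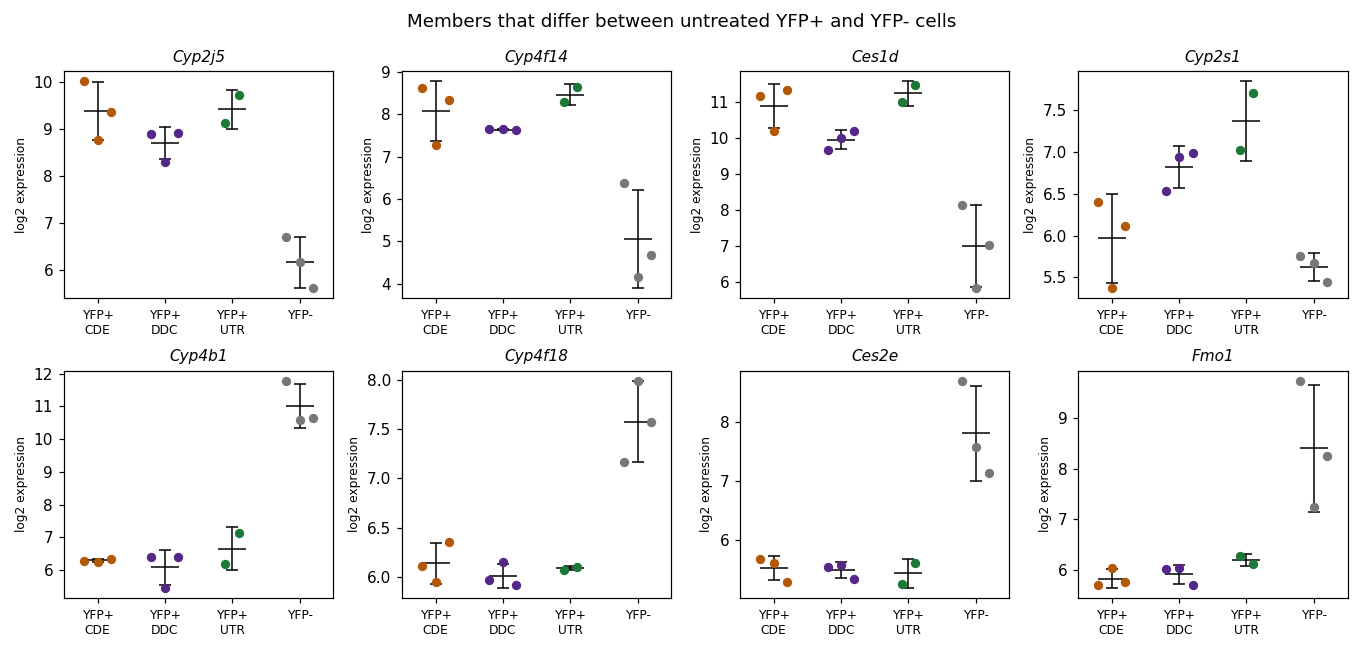
Log2 expression of 8 members on every array (points), with group means and SD as bars, for YFP+ CDE, YFP+ DDC, YFP+ UTR and YFP- cells. Cyp2j5, Cyp4f14 and Ces1d lie higher on all 8 YFP+ arrays than on the YFP- arrays, while Cyp4b1, Cyp4f18, Ces2e and Fmo1 lie lower on all 8. Cyp2s1 overlaps with YFP- on 1 CDE array.

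Of the 8 Cyp3a genes Cyp3a13 was higher by 0.63 ± 0.13, a call lost without UTR replicate 2. Cyp3a16 was lower, with a difference of -0.45 ± 0.13, but lay under the lower quartile in both groups, so its size has little meaning, and its call was lost in all 5 fits that left out 1 array and with quantile normalization. Cyp3a11, the main Cyp3a of mouse hepatocytes and a target of PXR, read 5.64 and 5.90 in UTR cells, against 5.37, 6.43 and 5.98 in YFP- cells, without order. The Cyp1 genes, the classical targets of AHR, had 0 of 3 past the threshold. Cyp1b1 read 3.85 and 3.90 in UTR cells, against 6.78, 3.45 and 3.94 in YFP- cells, and Fmod read 5.73 and 5.25, against 10.06, 5.22 and 5.38. Both stood out on YFP- replicate 1 alone. Of the YFP- arrays it was highest for stellate and fibroblast, for endothelial and for bile duct markers. The part of any of these cells in the result was not tested.

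Glucuronosyltransferase genes gave few calls. In Ugt1a 0 of 5 passed, and in Ugt2 1 of 10, Ugt2b1, which was lower, with a difference of -0.93 ± 0.26 (SE, adjusted p = 0.0385, limma). The 5 Ugt1a transcripts share their last exons, so their features can read each other. Ugt1a1, the bilirubin glucuronosyltransferase, read 5.46 and 5.39 in UTR cells, against 4.98, 5.22 and 5.84 in YFP- cells. Among the 23 were 0 of the 8 members with HNF1 letters in the promoter, 1 of the 9 with HNF4 letters and 4 of the 15 with the AHR core, where 18.9% of all genes passed.

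YFP- replicate 3 had the highest mean of the hepatocyte markers and also the highest macrophage markers of the YFP- arrays. It was the highest of the 3 YFP- arrays for 67 of 118 members (56.8%), against 35.6% of all genes, and for 8 of 10 Ugt2 genes. Ugt2b5, a hepatocyte glucuronosyltransferase, read 3.37 and 3.57 in UTR cells, against 3.86, 5.51 and 8.11 on YFP- replicates 1 to 3. Ugt2b36 read 3.41 and 4.87 in UTR cells, against 3.20, 7.21 and 8.39. Ces3a read 3.39 and 3.43, against 3.64, 4.18 and 7.50, and Cyp2a12 read 4.01 and 3.81, against 4.19, 4.93 and 6.58. These 4 genes were named for their order over the 3 YFP- arrays, which was that of the mean of the hepatocyte markers. Single markers such as Alb and Apob had this order. Others did not, such as Ambp (11.13, 9.09 and 10.14 on YFP- replicates 1 to 3) and Ttr (11.35, 11.49 and 11.42). The part of hepatocyte RNA in the result was not tested. Cyp2e1, Fmo1 and Ces1d, given above, were instead highest on YFP- replicate 1, where the mean of the hepatocyte markers was lowest. On that array 14 members (11.9%) stood over both other YFP- arrays by more than 0.5 log2, near the 9.82% of all genes. On YFP- replicate 3 that held for 25 members (21.2%), against 7.3% of all genes. None of the 4 genes passed (adjusted p = 0.113 to 0.282, limma).

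The count of members depended on single arrays. It fell to 12 when UTR replicate 1 was left out and to 8 when UTR replicate 2 was. Leaving out YFP- replicate 1 gave 37, as 14 higher and 23 lower. It was 3 in a fit of these 5 arrays alone. The shares of all genes called in these fits are not given here. A change particular to the members cannot be read from these counts. Cyp2j5 and Cyp4b1 passed in every alternative run. The calls of Cyp2j6, Cyp2d22, Cyp2u1, Cyp2r1, Fmo1, Ces2h and Ugt2b1 were lost in the fit of these 5 arrays alone. Those of Cyp2j6, Cyp2d22 and Ces2h were also lost without YFP- replicate 3, and those of Cyp2u1 and Ces2h without YFP- replicate 2. With 1 array left out the difference of Cyp2j6 ran from 1.78 to 2.93, and that of Fmo1 from -2.80 to -1.55.

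The other genes of the pathway, which are no members, were taken from 4 lists. Of 15 measured receptors and regulators 5 were higher and 2 lower in UTR cells. The xenobiotic receptor PXR, Nr1i2, read 6.88 and 7.65 in UTR cells, against 5.06, 4.48 and 4.87 in YFP- cells (2.46 ± 0.33, SE), and Hnf4a, a hepatic nuclear receptor, was higher by 2.45 ± 0.37. CAR, Nr1i3, differed by 0.04, and Ahr by 0.54 without passing. The glucocorticoid receptor Nr3c1 was lower, with a difference of -1.12, and so was Tiparp, a target of AHR (-1.94).

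Of 8 P450 partners 1 was higher and 1 lower. Ephx2, the soluble epoxide hydrolase that turns the products of Cyp2j enzymes into diols, was higher by 2.06 ± 0.25 (SE), and Cyb5a, the P450 electron donor cytochrome b5, was lower, with a difference of -0.64. Of 13 other conjugating enzymes 4 were higher, Sult1c2, Gsta3, Gstm1 and Gstp1, and 1 was lower, Sult2a8. Of 13 drug transporters 0 were higher and 1 was lower, Abcb1b (-1.62), a P-glycoprotein gene.

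The CDE diet was set against no treatment to show how these genes respond to steatotic injury. No member passed (0 of 118; 0% of all genes by limma; lowest adjusted p = 0.264), and 13 members had an unadjusted p under 0.05 (6.44% of all genes did). The median over the members was 0.00, as it was over all genes. On 24 members the arrays of the groups did not overlap, against 22% of all genes, and of these 12 were higher and 12 lower in CDE cells, against 11.5% and 10.5% of all genes.

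3 members differed by over 1 log2 unit, each lower in CDE cells. Ugt1a7c read 3.66, 4.27 and 4.08 in CDE cells, against 5.90 and 5.97 in UTR cells. The groups did not overlap, and the difference was -1.93 ± 0.31 (SE, adjusted p = 0.264, limma). On the DDC arrays it read 5.57, 4.50 and 5.40, between both groups. All 3 CDE arrays lay under their lower quartile, so the difference is a lower bound.

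Cyp2s1 read 6.41, 5.37 and 6.12 in CDE cells, against 7.03 and 7.71 in UTR cells, without overlap (-1.40 ± 0.32, SE, adjusted p = 0.522, limma). DDC arrays lay between them at 6.53, 6.94 and 6.99. Ugt2b34 read 5.57, 5.80 and 5.59 in CDE cells, against 5.29 and 8.45 in UTR cells, so its difference of -1.22 came from UTR replicate 2. It turned to 0.36 without that array, and without UTR replicate 1 it was -2.80 and passed (adjusted p = 0.0144, limma).

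CDE replicate 2, the YFP+ array with the highest hepatocyte markers, was also highest for some P450s of hepatocytes. It lay over both other CDE arrays by more than 0.5 log2 for 5 members (4.24%), against 1.48% of all genes: Cyp2d9, Cyp2d10, Cyp2d26, Cyp2e1 and Cyp4f15. Cyp2d10 read 9.77 there and 7.86 and 7.84 on CDE replicates 1 and 3, against 7.18 and 7.99 in UTR cells. Cyp2e1 read 6.09 there and 5.23 and 5.19 on the others, against 5.26 and 5.20 in UTR cells. Without this array the difference of Cyp2d10 between CDE and UTR cells fell to 0.26, against 0.90 with it, and that of Cyp2e1 to -0.02, against 0.27. Other hepatocyte P450s were not highest there: Cyp2c29 read 3.60, with 3.68 and 3.48 on CDE replicates 1 and 3, and Cyp3a11 read 5.45, with 6.18 and 5.77. The part of hepatocyte RNA in these values was not tested.

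**Figure D3:**
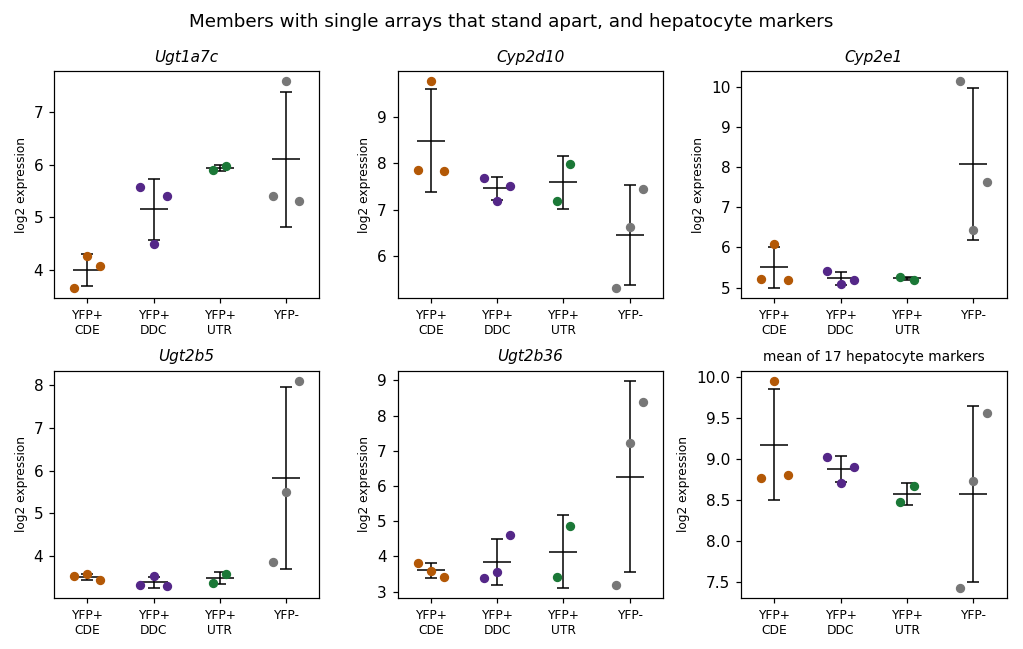
Log2 expression of 5 members and the mean of 17 hepatocyte markers on every array (points), with group means and SD as bars, for YFP+ CDE, YFP+ DDC, YFP+ UTR and YFP- cells. Cyp2d10 and the hepatocyte markers are highest on CDE replicate 2, Ugt2b5 and Ugt2b36 on YFP- replicate 3, and Ugt1a7c is lower on all 3 CDE arrays than on any other YFP+ array.

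DDC was set against no treatment to ask the same of cholestatic injury. Of 118 members 0 rose and 1 fell, Fmo2, where 0.16% of all genes passed (limma, adjusted p under 0.05; 0.0949% higher and 0.0647% lower). With Fmo2, 14 members had an unadjusted p under 0.05, against 10.4% of all genes. On 29 members the groups did not overlap (13 higher, 16 lower), against 24.5% of all genes (12.7% and 11.8%). The median was -0.01 over the members and 0.01 over all genes. The 4 members past 1 log2 unit, Ces1c, Fmo2, Ugt2b34 and Ces1d, were all lower in DDC cells. That of Ugt2b34, -1.37, turned to 0.21 without UTR replicate 2 and was -2.95, past the threshold, without UTR replicate 1 (adjusted p = 0.0084, limma).

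Fmo2 read 9.59, 9.31 and 9.24 in DDC cells, against 10.98 and 11.22 in UTR cells. Every DDC array lay more than 1 log2 unit below every UTR array, and the difference was -1.72 ± 0.21 (SE, adjusted p = 0.0308, limma), or 3.29 times less. The CDE arrays, at 11.07, 10.43 and 11.02, did not overlap with DDC either, and the difference of DDC from CDE was -1.46 ± 0.18 (adjusted p = 0.0184, limma). The call against UTR was lost without any 1 of the 5 arrays compared (differences from -1.84 to -1.60) and in the fit of all 11 arrays (adjusted p = 1), in which the spread of Fmo2 within YFP- enters.

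In all 6 FMO genes the DDC and UTR arrays did not overlap, 4 lower and 2 higher in DDC cells, with a median of -0.52, where 24.5% of all genes had groups without overlap (12.7% higher, 11.8% lower). Fmo4 read 4.47, 4.74 and 4.50 in DDC cells, against 5.34 and 5.63 in UTR cells (-0.92 ± 0.18, SE, adjusted p = 0.113, limma). Fmo5, an FMO that acts as a Baeyer-Villiger oxygenase, read 6.20, 6.52 and 6.70 in DDC cells, against 7.19 and 7.27 in UTR cells (-0.75 ± 0.15, SE, adjusted p = 0.124, limma). Fmo1 was at -0.29, and the remaining genes Fmo6 and Fmo9, which complete the family, were at 0.23 and 0.10. Only Fmo2 passed.

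Of the 18 carboxylesterases 0 passed against UTR, and 12 had a negative difference. Ces1c, the esterase that rodents secrete into plasma, read 4.60, 4.99 and 4.79 in DDC cells, against 6.07 and 7.68 in UTR cells. The groups did not overlap, but the UTR arrays lay far apart, and the difference of -2.08 ± 0.39 did not pass (SE, adjusted p = 0.103, limma). Without UTR replicate 1 it was -2.89 and passed (adjusted p = 0.00366, limma), and without UTR replicate 2 it was -1.28.

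Ces1d read 9.66, 10.01 and 10.19 in DDC cells, against 11.00 and 11.48 in UTR cells (-1.29 ± 0.33, SE, adjusted p = 0.209, limma). Ces2g, of the intestinal and hepatic Ces2 group, read 8.27, 8.65 and 7.91 in DDC cells, against 9.14 and 9.05 in UTR cells (-0.82 ± 0.23, SE, adjusted p = 0.244, limma). All 3 genes lay lower on each DDC array than on each UTR array. Another 3 of the 18, Ces1b, Ces1h and Ces3a, lay higher on each DDC array, by 0.20, 0.24 and 0.22, of which Ces1h and Ces3a lay under the lower quartile in both groups; Ces1b and Ces1h were named after their values were seen. Of all genes 24.5% had groups without overlap (12.7% higher, 11.8% lower). Ces1c, Ces1d and Ces2g lay over the array median on all UTR arrays, and Ces1d and Ces2g also on all DDC arrays.

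**Figure D4:**
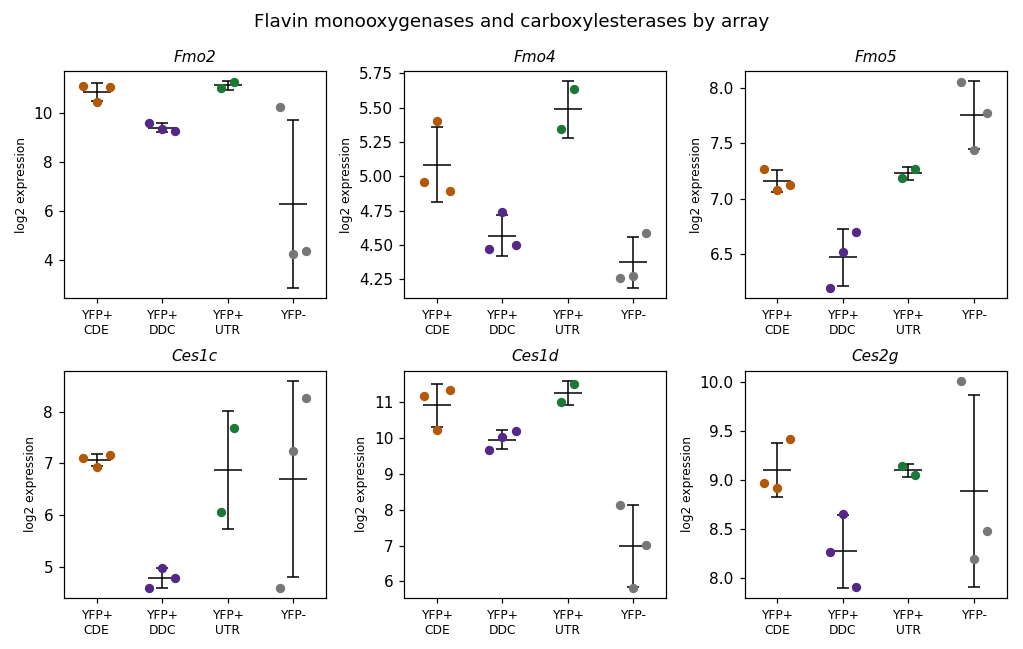
Log2 expression of 3 FMO and 3 carboxylesterase genes on every array (points), with group means and SD as bars, for YFP+ CDE, YFP+ DDC, YFP+ UTR and YFP- cells. In each of the 6 genes all DDC arrays lie below all UTR arrays, and in Fmo2, Fmo4, Fmo5, Ces1c, Ces1d and Ces2g also below all CDE arrays. The 6 genes do not stand for their families. Fmo6, Fmo9, Ces1b, Ces1h and Ces3a, not shown, lay higher on all DDC than on all UTR arrays. Of all genes 24.5% had DDC and UTR arrays without overlap.

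None of the genes best known for induction by foreign compounds passed on DDC. Cyp1a1 read 4.73 to 4.76 in DDC cells, against 4.76 and 4.89 in UTR cells (-0.07 ± 0.09, SE). Cyp1a2 was at 0.03 ± 0.15, Cyp1b1 at 0.05 ± 0.12, Cyp2b10 at 0.02 ± 0.15 and Cyp3a11 at -0.29 ± 0.21. All lay under the array median in both groups or near it, which limits what could be seen. Cyp4f14, bright in bile duct cells, read 7.62 to 7.65 in DDC cells, against 8.29 and 8.64 in UTR cells (-0.83 ± 0.34, SE, adjusted p = 0.453, limma).

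DDC was also set against CDE, without the UTR arrays in the contrast. Of 118 members 0 were higher and 2 lower in DDC cells, Fmo2 and Ces1c, where 1.16% of all genes passed (limma; 0.418% higher and 0.742% lower). An unadjusted p under 0.05 was found for 16 members, against 15.3% of all genes. On 22 members the groups did not overlap (8 higher, 14 lower), against 20.3% of all genes (9.64% and 10.6%). Ces1c read 7.10, 6.93 and 7.15 in CDE cells, far above its DDC values, and the difference was -2.27 ± 0.35 (SE, adjusted p = 0.0297, limma), or 4.81 times less in DDC cells. Its call was lost without any 1 of the 6 arrays, with differences from -2.36 to -2.17, and that of Fmo2 without any 1 of 5 of them, with differences from -1.66 to -1.34 over all 6. The count of members was 0 without any 1 of 4 arrays (DDC replicates 1 and 3, CDE replicates 1 and 3) and 1 without DDC replicate 2 or CDE replicate 2. In the fit of all arrays it was 0.

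Among members that did not pass, some lay close to the threshold. Fmo5 was at -0.69 ± 0.13 (adjusted p = 0.062, limma), Cyp4f17 at -0.66 ± 0.13 (0.0677) and Cyp4v3, whose human counterpart is mutated in a corneal and retinal dystrophy, at -0.51 ± 0.11 (0.0777). Cyp2j9 was at 0.68 ± 0.15 (adjusted p = 0.0812, limma), and was named after its value was seen. Ces2g was at -0.83 ± 0.20 and Ces1d at -0.95 ± 0.29. Ugt1a7c was at 1.15 ± 0.28 (adjusted p = 0.1, limma) and Cyp2s1 at 0.85 ± 0.28, with DDC values between CDE and UTR. Cyp2d10 was at -1.03, and -0.39 without CDE replicate 2.

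**Figure D5:**
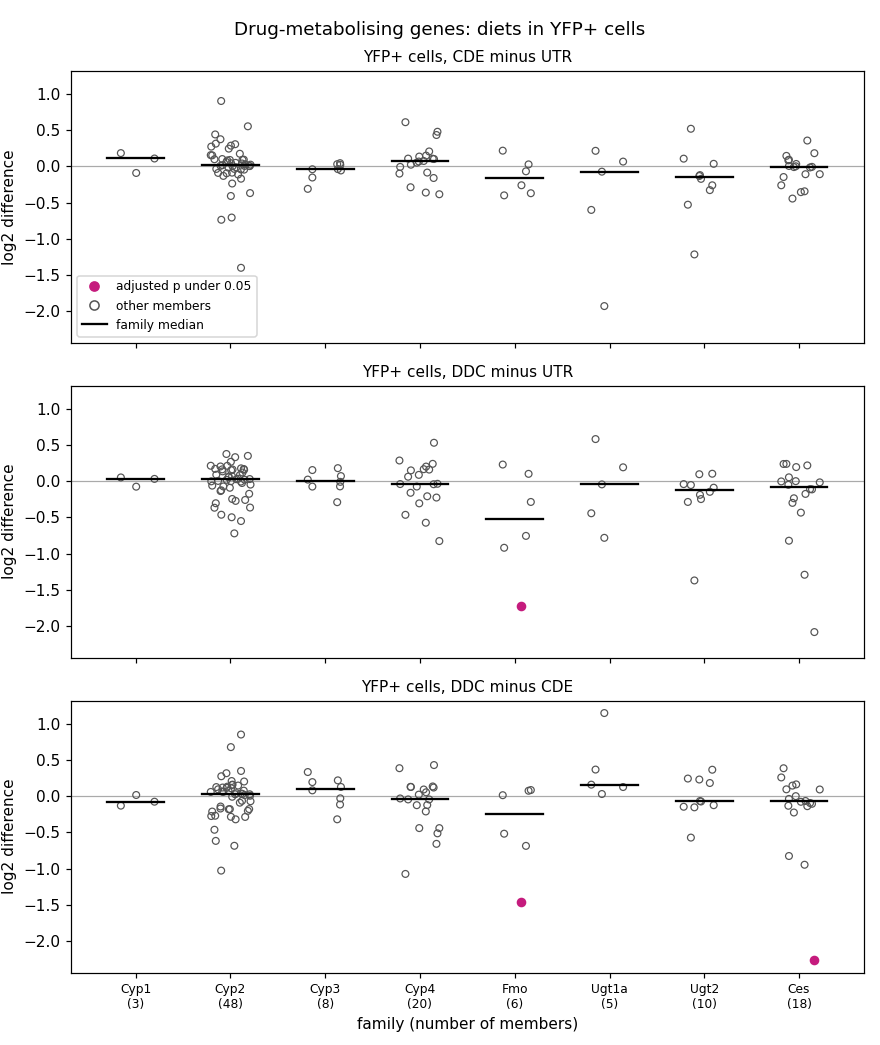
Log2 difference of each of the 118 members (points) by family in YFP+ cells, in 3 panels: CDE against UTR, DDC against UTR, and the diets against each other (DDC minus CDE), filled where the adjusted p was under 0.05, with the family median as a bar. No member is filled for CDE, Fmo2 is filled for both DDC comparisons and Ces1c for DDC minus CDE, and the family median farthest from 0 in the 3 panels is -0.52, that of Fmo for DDC against UTR.

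Beside the members, 0 of the 49 measured pathway genes passed for CDE or for DDC against UTR. For DDC against CDE 1 passed, Ugp2, which makes the UDP-glucose from which UDP-glucuronic acid derives, at -0.58 (adjusted p = 0.0447, limma). The sulfotransferase Sult1a1 read 8.83, 8.61 and 9.24 in DDC cells, against 10.27 and 10.50 in UTR cells (-1.49, adjusted p = 0.102, limma). The regulators Nr1i2 (0.28), Hnf4a (-0.24) and Ahr (0.59) did not pass on DDC.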

How the data were processed

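The values are log2 expression values per gene that the authors deposited; base 2 is inferred from their range, and no source used here gives the background correction, normalization or probe summary. Of 25206 features, 23185 had 1 gene symbol in the platform annotation and were tested. The members, the lists and the tests were chosen with earlier results of these data known. Differences between groups came from linear models per gene (lmFit and eBayes of limma 3.58.1, R 4.3.3), two-sided, with Benjamini-Hochberg adjustment over all 23185 genes and a threshold of 0.05. The comparison with YFP- used all 11 arrays (7 residual degrees of freedom), and those among YFP+ groups used the 8 YFP+ arrays (5), since YFP- arrays varied more (median SD of the members 0.342; the YFP+ groups had 0.13 to 0.181). The fit was tested on simulated data. Named were the largest called members of each family and comparison, members past 1 log2 unit and a fixed set. The number of arrays limits the precision.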

Additional observations from a re-analysis of the deposited data

Results flagged for a closer look

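In 2 members the effect of DDC against untreated cells differed from that of CDE by the test of the difference itself. Ces1c differed by -2.27 log2 between DDC and CDE cells (adjusted p = 0.0297, limma), and lay at -2.08 for DDC and 0.18 for CDE against UTR. Fmo2 differed by -1.46 (adjusted p = 0.0184, limma), and lay at -1.72 for DDC and -0.26 for CDE against UTR. The call of Ces1c was lost in all 6 fits that left out 1 array and that of Fmo2 in 5 of 6, and both were lost in the fit of all arrays (adjusted p = 0.49 for Ces1c and 0.922 for Fmo2, limma). Both comparisons with UTR share the 2 UTR arrays. All 3 DDC arrays lay below all 3 CDE arrays in both genes, where 10.6% of all genes had groups without overlap in that direction.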

How the results depend on the processing

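Counts of called members are given by setting, without the shares of all genes called in the same settings. For UTR against YFP- the count was 23, 3 in the 5 arrays alone and 8 to 37 when 1 array was left out, and 21 to 24 with quantile normalization, array weights, a trended robust prior or dim genes left out; array weights turned the split from 13 higher and 10 lower to 10 higher and 13 lower. For CDE against UTR it was 0, and 0 to 1 with 1 array left out. For DDC against UTR it was 1, 0 in all 11 arrays, 0 with the replicate block and 0 to 2 with 1 array left out. For DDC against CDE it was 2, 0 in all 11 arrays, 0 with the replicate block and 0 to 1 with 1 array left out. With the replicate number as a block the count for UTR against YFP- was 18, of which 16 were among the 23, and the calls of Fmo2 and Ces1c for DDC against CDE were lost (adjusted p = 0.0595 for both, limma). Same-numbered arrays of different groups correlated at -0.0722 to 0.131 in their deviations from the group means, with 1 of 15 pairs over 0.1. Differently numbered arrays correlated at -0.151 to 0.151, with 2 of 30 pairs over 0.1. In groups this small the deviations depend on each other, so these values cannot decide whether replicate numbers pair the arrays. No called gene changed sign in any alternative; signs of uncalled genes were not followed. Of 26 calls, 7 held whenever 1 array was left out and 2 in every alternative. The causes were not tested.

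Where only 1 UTR array remained, it was assumed to vary like the other groups. No depth or detection call comes with these values, so values near the array floor give bounds at most.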
